A study of Mus musculus with 20 samples.

Results

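The genes described here are the lysosomal hydrolases with their cofactors, lysosomal membrane proteins and transcription factors, and the subunits of the vacuolar H+-ATPase (V-ATPase), the pump that acidifies the lysosome. They were chosen by name: 28 listed genes, and the 23 gene names in the count tables that begin with Atp6v0 or Atp6v1, which gives 51 of 23413 gene names. By role they are 10 proteases, 6 glycosidases, 5 lipid hydrolases and soluble cofactors, 5 membrane proteins, 2 factors of the TFEB family (Tfeb and Tfe3), 10 genes of the V0 sector and 13 of the V1 sector of the V-ATPase. Counts were high enough to test in 45 of the 51.

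The lysosome is the degradative compartment of the cell. Its proteases, glycosidases and lipid hydrolases work at acidic pH, which the V-ATPase sets by coupling ATP hydrolysis in the cytosolic V1 sector to proton transport through the membrane V0 sector. TFEB and TFE3 are basic helix-loop-helix factors that bind E-box elements near lysosomal genes and activate them. In brain, cathepsins S, C and H are known as microglial enzymes, whereas neurons carry high levels of V-ATPase, which also energizes the loading of transmitter into synaptic vesicles.

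The libraries came from frozen cortex of 22-month-old APOE4 knock-in mice, which carry the Apoe tm1.1(APOE*4)Adiuj allele on a B6(SJL) background. Human APOE4 replaces mouse Apoe in the whole body of these mice, and every group carries it. From 10 months of age the mice ate a ketogenic diet (KD) or a control diet (CD, SD in the sample labels) in equal calories for 12 months. Total RNA of 1 mouse made 1 library: 20 libraries, each labelled as a separate animal, with 5 CD and 4 KD in females and 5 CD and 6 KD in males. Depth was 12207161 to 24674575 counts in CD and 13589102 to 25756335 in KD females, and 15931191 to 29109990 in CD and 14740328 to 27957243 in KD males. Library numbers in the labels form 2 series of 10 libraries, and series 1 was deeper (21015275 to 29109990 counts) than series 2 (12207161 to 17697342). Mouse Apoe was at 1.33 to 3.34 CPM (the count scaled to the library total) in the 20 libraries.

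Some libraries stood apart on markers of other tissue, and several results below are also given without them or with marker scores in the model. The summed CPM of 12 striatal neuron markers was 868 to 2311 in 5 libraries and 137 to 390.1 in the other 15. The 5 were 3 of the 4 KD females (E207, E61 and E68), the CD female E249 and the KD male E59. Among KD females E227 was the exception, with 206, and among CD females E249 was the exception, with 868 against 137 to 192 in the other 4. The markers of cortical excitatory neurons summed to 439 to 485 CPM in E249, E207, E61 and E68, and to 932 to 1245 in the other 16. E59 also held 2404 CPM of choroid plexus markers against 16.4 to 69.3 in the other 19. The X-linked Xist was at 319 to 1364 CPM in females and at most 7.59 CPM in males. The CD female E228 had 14.0 CPM of the Y-linked Ddx3y, where the other 8 female libraries had at most 1.64 and males had at least 164. In bulk tissue, fewer cells of a type and less RNA per cell cannot be told apart.

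Because TFEB and TFE3 act through E-boxes, the promoters of the genes were searched for the core CACGTG and for its longer forms TCACGTGA and GTCACGTG, on both strands. Each longer form contains the core, and they overlap one another. RefSeq promoters (GRCm38.p6, 250 bases before to 50 after the gene start) were at hand for 40 of the 51 genes. CACGTG was in 14 of these 40 (35.0%), against 8.09% of 27025 genes with a promoter and 11.2% of the 11359 of them that were tested for expression. TCACGTGA was in 7 of 40 (17.5%; 1.98% of tested genes) and GTCACGTG in 9 of 40 (22.5%; 4.38% of tested genes). Counted by gene, the core was in promoters of 5 of 8 protease, 3 of 6 glycosidase, 2 of 4 membrane protein, 3 of 7 V0 and 1 of 9 V1 genes. It was in no promoter of the 4 lipid hydrolase and cofactor genes or of the 2 TFEB family genes. A match describes the letters and not a bound site. The stretches below, none of which overlaps a GENCODE exon of its gene, show the matches in genes of 3 classes whose levels are described later. They read 5′ to 3′ on the strand of the gene, and the capitals mark the matched letters.
Gla: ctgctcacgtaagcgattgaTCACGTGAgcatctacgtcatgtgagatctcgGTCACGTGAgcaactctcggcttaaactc
Gaa: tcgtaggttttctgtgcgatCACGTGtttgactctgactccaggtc
Glb1: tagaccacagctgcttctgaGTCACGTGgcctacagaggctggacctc
Lgmn: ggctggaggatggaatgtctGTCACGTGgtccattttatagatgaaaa
Ctsf: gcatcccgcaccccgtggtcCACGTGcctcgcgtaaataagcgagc
Atp6v1a: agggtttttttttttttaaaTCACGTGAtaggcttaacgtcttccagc

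The Gla stretch lies at chrX:134601173-134601253 on the minus strand and holds 2 matches, the nearer of them 187 bases before the RefSeq gene start, from which all distances here are counted. Gaa (chr11:119267803-119267848, plus strand) has its match 134 bases before the start, and Glb1 (chr9:114401008-114401055, plus strand) has its match 42 bases before it. The matches of Lgmn (chr12:102439116-102439163, minus strand) and Ctsf (chr19:4855066-4855111, plus strand) stand 43 and 73 bases before the start. Atp6v1a (chr16:44139364-44139411, minus strand) was the single V1 gene with a match, 124 bases before the start.

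Levels of different genes were compared per length, as counts divided by the kilobases of exon of the gene and scaled to the same sum in every library. Psap, which encodes the precursor of the saposins that present sphingolipids to their hydrolases, was the most abundant of the 51, with a median of 2002 and a range of 1241 to 2774 over the 20 libraries. Atp6v1a, the catalytic A subunit, followed at 931, then Atp6v1b2, the B subunit beside it, at 713 and the aspartyl protease Ctsd at 709. These 4 were above 99% of the 21737 genes with a length, and so were Atp6v0e2, Atp6v0d1 and Lamp1 at 577, 566 and 560. At the other end of the tested genes were Tfe3 at 7.87, Atp6v1c2 at 1.99, Tfeb at 1.46 and Atp6v0a4 at 0.342. Among the hydrolases Ctsc (8.26), Ctsh (12.3) and Gusb (13.4) were lowest. Ctsd shares exon sequence with Gm49369 on the same strand, so its reads may be split.

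**Figure D1:**
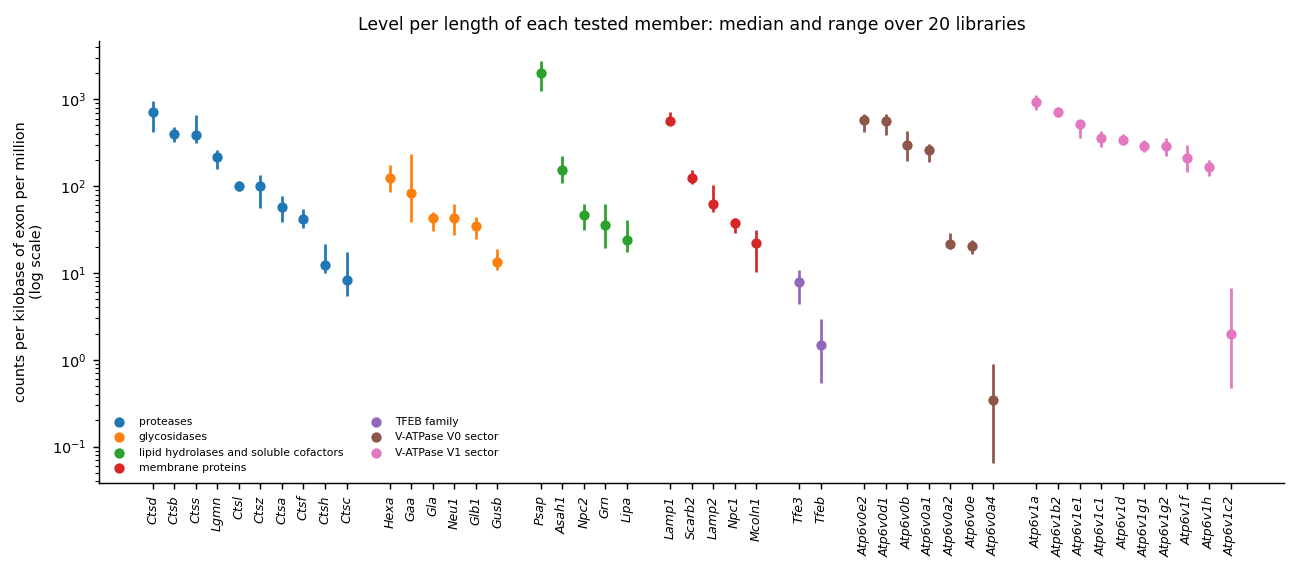
Level per length (counts per kilobase of exon, scaled to the same sum in every library, log scale) of the 45 tested genes, in classes; points are medians and lines the lowest to the highest of the 20 libraries. Psap at 2002 and Atp6v1a at 931 stand highest, and Atp6v0a4 at 0.342 lowest.

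For most V-ATPase subunits with several genes matched by name, 1 gene made up nearly all of their summed level in these libraries. Atp6v0a1 made up 91.6% ± 1.83 (SD, n = 20) of the level per length of the 3 tested genes named Atp6v0a. Tcirg1, another a-subunit gene, was listed with the accessory genes and was not in that sum. Atp6v0e2 made up 96.6% ± 0.642 of the 2 e-subunit genes and Atp6v1c1 99.2% ± 0.668 of the 2 C-subunit genes. The G subunit, a stalk protein, was shared almost evenly by the broadly expressed Atp6v1g1 and the neuronal Atp6v1g2, the latter at 50.3% ± 3.32. Of the V1 subunits, A, B, E and G occur in several copies per complex and C, D, F and H in 1 copy. In 19 of the 20 libraries the level per length of Atp6v1a, of Atp6v1b2, of Atp6v1e1 and of the 2 G genes summed (median 578) each exceeded those of Atp6v1c1 (362), Atp6v1d (340.1), Atp6v1f (212.6) and Atp6v1h (165). This grouping by copies was made after the levels had been seen.

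The 6 genes that could not be tested were Atp6v0c, Atp6v0c-ps2, Atp6v0d2, Atp6v1b1, Atp6v1e2 and Atp6v1g3. Atp6v0c, the c subunit that forms the rotor ring of V0, was listed at 0 in all 20 libraries. So were 2233 gene names in all, the ribosomal protein gene Rpl26 among them, and the reason was not tested. Atp6v1b1, the kidney form of the B subunit, had at most 0.442 CPM. Atp6v0d2, known from osteoclasts, reached 0.901 CPM in E249 and was at 0 in most other libraries.

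Replicates varied unequally between the classes. The SD of log2 CPM among libraries of a group had a median of 0.22 over the 45 tested genes. It was 0.15 over V1 genes, 0.21 over V0 genes, 0.24 over proteases and 0.27 over glycosidases. Ctsl was steadiest (0.096), and Atp6v0a4 (1.05), Atp6v1c2 (1.01), Tfeb (0.64) and Gaa (0.61) varied most. The CD females E249 and E265, which were also the shallowest libraries of the 20, had the lowest CPM for 13 and 9 of the 45 genes. Psap shows this, at 653 and 658 CPM in E249 and E265 and 1094 to 1201 CPM in the other 3 CD females, and so does Ctsd, at 211 and 192 against 339 to 357. The KD male E64 held the highest CPM for 12 genes, among them Gaa at 235.

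The first question was whether the diet changed these genes in females. None of the 45 was called at a false discovery rate (FDR) of 0.1 and a 1.5-fold change, where 0.0447% of all 15660 genes tested were called (edgeR quasi-likelihood test). At an unadjusted p under 0.05, 5 were higher in KD (5.86% of all genes) and 2 were lower (5.5%). The median log2 fold change was 0.058 over the 45 genes, 26 of them higher and 19 lower, and 0.013 over all genes tested. The classes differed in sign: 21 of the 28 genes outside the V-ATPase were higher in KD (median 0.095), whereas 12 of the 17 V-ATPase genes were lower (median -0.11). Proteases had the highest class median among those of more than 2 genes, 0.21 with 9 of 10 higher, and V1 genes the lowest, -0.12 with 8 of 10 lower. With a microglial marker score in the model, 13 of the 28 were higher and 15 lower (median -0.0018), and 3 of the 17 were higher and 14 lower (median -0.093). With a striatal score, 21 of the 28 were higher and 7 lower (median 0.13), and 8 of the 17 were higher and 9 lower (median -0.0083). The median of the 45 was 0.036 without E227 and 0.12 without E228. That of the 28 was 0.15 without E228 and 0.15 without E207. That of the 17 was -0.059 without E228, -0.050 without E207, -0.16 without E249 and -0.18 without E227. The V1 median was -0.18 without E227 and -0.069 without E207. The 7 genes at an unadjusted p under 0.05 were 4 without E61, where 3.51% of all genes were higher and 2.87% lower, and 13 without E249, where 10.8% were higher and 7.89% lower.

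**Figure D2:**
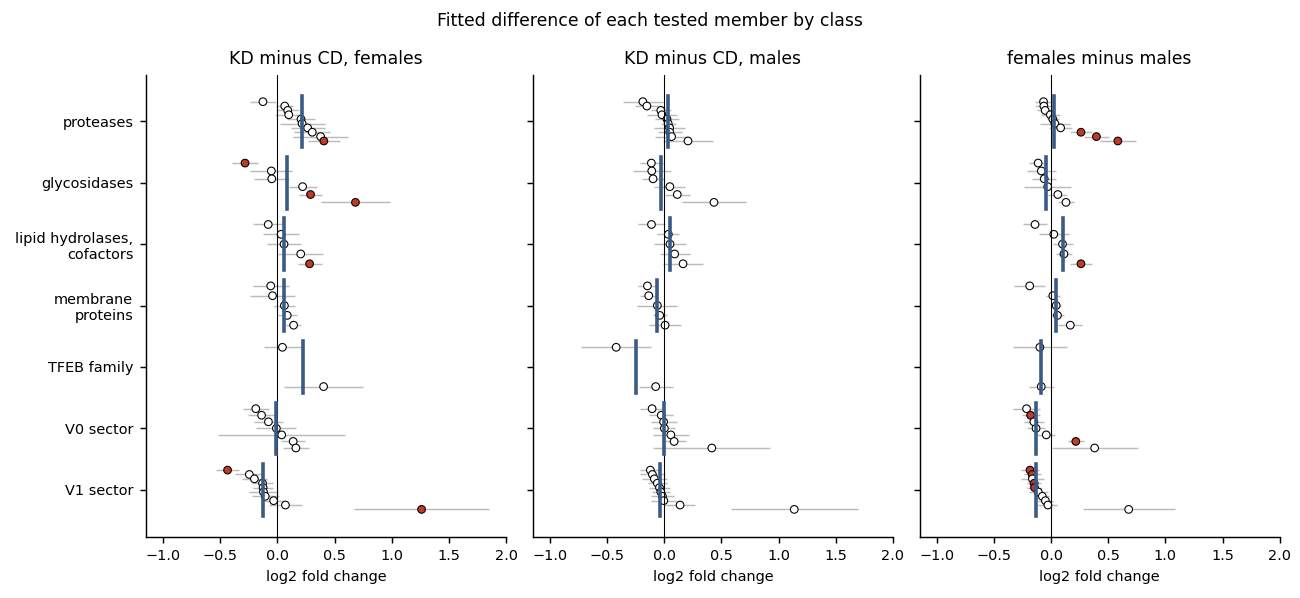
Fitted log2 fold changes of the 45 tested genes by class for KD against CD in females (left), KD against CD in males (middle) and females against males (right). Each circle is 1 gene with its standard error, filled red at an unadjusted p under 0.05, and the blue bar is the class median; in females on KD proteases center at 0.21 and V1 genes at -0.12.

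Atp6v1g2, the neuronal G subunit of V1 (chr17:35233660-35238767 of GRCm38 in GENCODE M21, plus strand), had the smallest p of all 45. It was at 137, 148, 168, 170.4 and 172 CPM in CD females and at 115, 117, 117 and 139.8 CPM in KD females. KD females lay below CD females except for E227, which was above the CD female E249. The log2 fold change was -0.44 ± 0.10 (SE), with an adjusted p of 0.175. In CD males it was at 141, 144, 165, 167 and 168 CPM, and in KD males at 127 to 161 CPM with a median of 148, so that the male groups overlapped (-0.12 ± 0.09). The adjusted p was 0.036 with edgeR's likelihood ratio test and 0.0177 with DESeq2, which brought 1.69% and 2.23% of all genes past an FDR of 0.1. Without E227 and E249 together it was 0.0019 for a log2 fold change of -0.55, where 18.4% of all genes passed an FDR of 0.1. Leaving out those libraries removes the overlap of the groups in advance, and diet and striatal markers cannot be told apart in that fit. The exons of Atp6v1g2 share 144 bases with Nfkbil1 on the opposite strand.

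The share of Atp6v1g2 in the G subunit was 52.8% ± 3.66 in CD females (n = 5), 45.8% ± 2.41 in KD females (n = 4), 51.5% ± 1.20 in CD males (n = 5) and 50.3% ± 1.66 in KD males (n = 6). It ran from 43.5% to 48.5% in KD females and from 48.7% to 57.5% in CD females. The nearest of these were E227 at 48.5% and E249 at 48.7%, and the share was computed after the values of Atp6v1g2 had been seen. The 3 KD females with high striatal markers were at 43.5%, 44.1% and 47.1%. Its partner gene Atp6v1g1 was at -0.033 ± 0.10 in females.

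The libraries highest in striatal markers had the lowest V1 sums and the lowest Atp6v1g2. The 5 libraries with the most striatal marker CPM had the 5 lowest values of Atp6v1g2, 115 to 137 CPM against 139.8 to 172 in the other 15. They also had the 5 lowest summed levels of the V1 sector, 2851 to 3268 CPM against 3346 to 4025. Not every V1 gene was lowest there. Atp6v1c2 was at 2.43 to 2.70 CPM in E207, E61, E68 and E249 and at 0.457 CPM in E59. The other 15 libraries had 0.202 to 2.84 CPM of it. E227, the KD female low in striatal markers, had a V1 sum of 3668. With a striatal marker score in the model, the median of V1 genes in females was -0.011 in place of -0.12, and Atp6v1g2 was at -0.28 (adjusted p = 0.85). With the microglial score the V1 median was -0.093, with 8 of 10 lower.

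**Figure D3:**
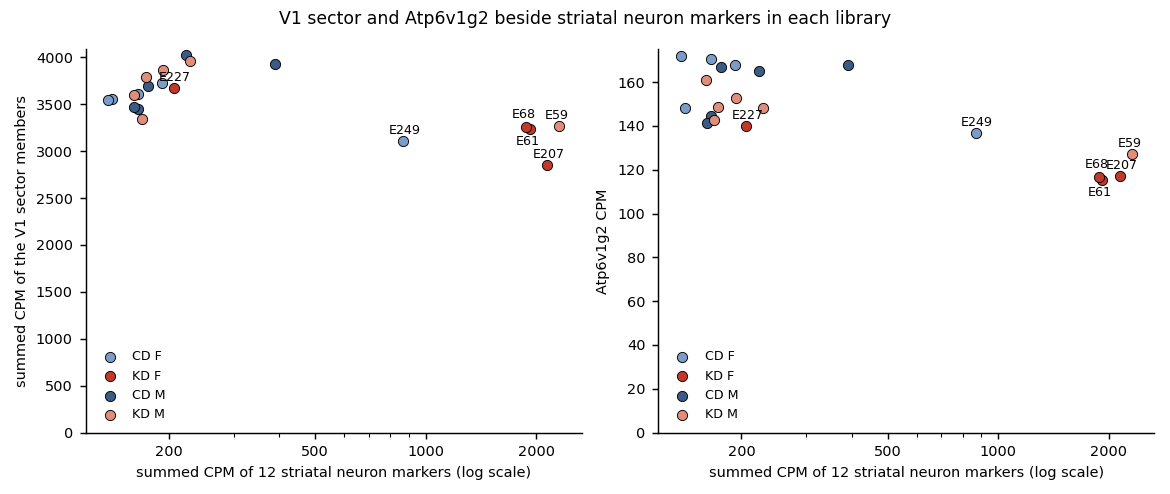
Summed CPM of the V1 sector (left) and CPM of Atp6v1g2 (right) in each of the 20 libraries against the summed CPM of 12 striatal neuron markers (log scale), colored by group. The 5 libraries with 868 to 2311 CPM of striatal markers have the lowest V1 sums, 2851 to 3268, and the lowest Atp6v1g2, 115 to 137.

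Of the other 16 V-ATPase genes, 11 had a log2 fold change below 0 in KD females and 5 above, and none of the 11 was at an unadjusted p under 0.05. Among V1 genes the log2 fold change was -0.25 for Atp6v1c1 and -0.20 for Atp6v1a, and Atp6v1f was at 0.070. Atp6v1a was at 1008, 1088, 1109, 1119 and 1153 CPM in CD females and at 867, 955, 985 and 1154 CPM in KD females, with E227 again highest among the KD libraries. The a-subunit gene Atp6v0a1 (-0.14), the d-subunit gene Atp6v0d1 (-0.19) and Atp6v0e2 (-0.079) had negative values in V0. Atp6v0a2 (0.14) and Atp6v0e (0.16) had positive ones, and the scarce Atp6v0a4, at 0.159 to 0.862 CPM in females, was at 0.038 ± 0.55. Leaving out E227 brought the V0 median from -0.0092 to -0.18, and leaving out E207 brought it to 0.068.

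Atp6v1c2, a C-subunit gene known from epithelia (chr12:17284721-17329359, minus strand), ran the other way at very low levels. It was at 0.238, 0.333, 0.678, 0.892 and 2.70 CPM in CD females and 1.44, 2.43, 2.46 and 2.64 in KD females. Only E249 among the CD females reached the KD range. The log2 fold change was 1.26 ± 0.59, with an adjusted p of 0.431, and without E249 it was 1.95 with an adjusted p of 0.043. Atp6v1c2 and Ctsc were then called (6.66% of all genes). With the striatal score in the model no V1 gene was higher at an unadjusted p under 0.05 (2.71% of all genes), nor was any with the microglial score (1.19%).

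Among the proteases Ctss, the cathepsin S of microglia (chr3:95526786-95556403, plus strand), had the smallest p. It was at 86.4, 95.9, 101.3, 110.5 and 128 CPM in CD females and at 111, 137, 162 and 183 CPM in KD females. E227 was lowest in KD and E249 highest in CD, and only these 2 libraries lay within the range of the other group. The log2 fold change was 0.41 ± 0.14, with an adjusted p of 0.264. It was 0.60 with an adjusted p of 0.0045 without E227 and E249, where 18.4% of all genes passed an FDR of 0.1. Leaving out these 2 libraries parts the groups in advance, and diet and striatal markers cannot be told apart in that fit. With the striatal score in the model the log2 fold change was 0.13 (adjusted p = 0.862). With the microglial score no protease was at an unadjusted p under 0.05 (1.19% of all genes higher and 2.18% lower).

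Ctsc, which activates other granule proteases, and Ctsh, an aminopeptidase, had the same order of libraries within CD and within KD females. Ctsc was at 8.70, 9.37, 9.42, 10.1 and 18.7 CPM in CD females and at 9.63, 14.4, 17.1 and 19.5 CPM in KD females. KD and CD females differed by 0.38 ± 0.24 on the log2 scale (adjusted p = 0.605), and by 0.79 without E227 and E249 (adjusted p = 0.0068). That fit brought 18.4% of all genes past an FDR of 0.1, and it has the same limits as for Ctss. Ctsh was at 0.30 ± 0.16 (adjusted p = 0.495). For the abundant Ctsd the log2 fold change was 0.26 ± 0.15, with the 2 shallow CD libraries E249 and E265 lowest. Ctsb was the single protease below 0, at -0.13 ± 0.12, and Ctsl, Lgmn and Ctsf were at 0.064, 0.090 and 0.099.

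**Figure D4:**
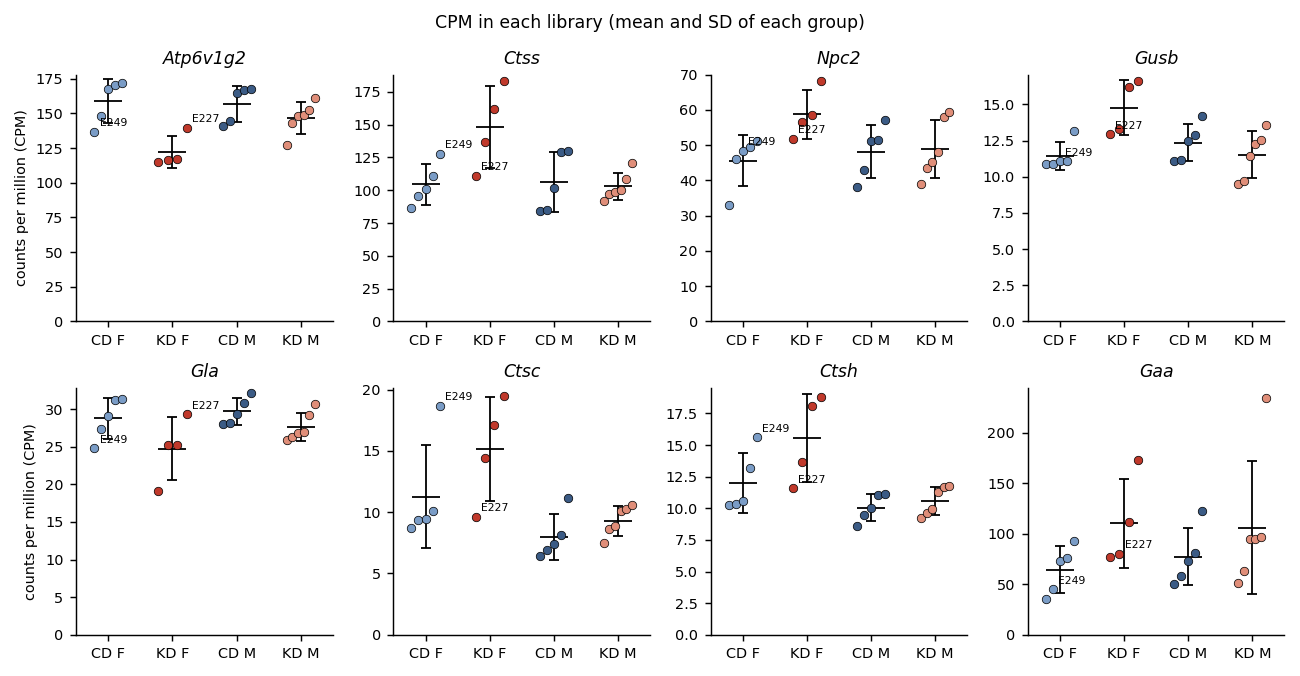
CPM of 8 genes in each library, with the mean and SD of CD females (n = 5), KD females (n = 4), CD males (n = 5) and KD males (n = 6); E227 and E249 are marked. KD females lie at 115 to 139.8 for Atp6v1g2 and at 111 to 183 for Ctss, and the KD male E64 reaches 235 for Gaa.

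Of the glycosidases, 3 were higher and 3 lower in KD females, and Gusb, Gla and Gaa had an unadjusted p under 0.05. With the striatal score 5 were higher and 1 lower (median 0.22), with 0 at that level (2.71% of all genes higher and 2.46% lower). With the microglial score 2 were higher and 4 lower (median -0.098), with 1 higher at that level (1.19% of all genes). Gusb, the beta-glucuronidase (chr5:129989011-130003049, minus strand), was at 10.9, 10.9, 11.1, 11.1 and 13.1 CPM in CD females and at 12.9, 13.3, 16.2 and 16.6 CPM in KD females. Only the CD library E62 reached the KD range. The log2 fold change was 0.29 ± 0.10 (adjusted p = 0.281). Gla, the alpha-galactosidase A (chrX:134588149-134601125, minus strand), was lower, at 24.8, 27.3, 29.1, 31.2 and 31.4 CPM in CD and 19.1, 25.2, 25.2 and 29.3 CPM in KD females. These groups overlapped, and the log2 fold change was -0.28 ± 0.12 (adjusted p = 0.349), which was -0.18 without E207 and -0.40 without E227.

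Gaa, the acid alpha-glucosidase that degrades glycogen (chr11:119267887-119285454, plus strand), was at 35.8, 44.9, 73.1, 75.7 and 93.1 CPM in CD and 77.1, 80.1, 111 and 173 CPM in KD females. The ranges overlapped through the CD library E62. The log2 fold change was 0.68 ± 0.30 (adjusted p = 0.40). Hexa, the most abundant glycosidase per length, was at 0.22 ± 0.12, and Neu1 and Glb1 were at -0.053 and -0.049.

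Npc2, the soluble protein that hands cholesterol to Npc1 (chr12:84754562-84773152, minus strand), was the single gene of the 51 whose CPM did not overlap between KD and CD females. It was at 33.0, 46.2, 48.4, 49.3 and 51.1 CPM in CD and 51.9, 56.5, 58.5 and 68.3 CPM in KD females. Among all genes tested, 1.7% were higher in KD without overlap and 0.402% lower without overlap. The log2 fold change was 0.28 ± 0.10 (adjusted p = 0.303). With a microglial marker score in the model it was -0.0011 (adjusted p = 0.9999). Psap (0.032), Lipa (0.058) and Asah1 (-0.080) were near 0, and Grn, the progranulin gene, was at 0.20 ± 0.20.

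Membrane proteins were at -0.058 to 0.14 in females, and of the TFEB family Tfeb had a larger value with a wide error. Lamp1, the main glycoprotein of the lysosomal membrane, was at 265.4, 270.1, 287, 298 and 303 CPM in CD and 287, 302, 372 and 379 CPM in KD females (0.14 ± 0.07, adjusted p = 0.453). The groups overlapped, with E61 and E68 highest. Scarb2, Npc1, Lamp2 and the calcium channel gene Mcoln1 were at 0.061, 0.086, -0.058 and -0.043. Tfeb was at 0.573, 0.635, 1.52, 1.70 and 1.98 CPM in CD and 1.59, 1.62, 1.97 and 2.10 CPM in KD females (0.40 ± 0.35, adjusted p = 0.754), and its lowest values were again in E249 and E265. Tfe3 was at 0.044 ± 0.16.

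In males none of the 45 genes was called, nor was any gene (0% of all tested). At an unadjusted p under 0.05 there were 0 of 45 in either direction, against 2.37% of all genes higher and 1.19% lower. Without the KD male E59, and also with the striatal score in the model, there were 1 higher and 1 lower, Atp6v1c2 and Npc1. The shares of all genes higher and lower were 3.02% and 1.94% without E59, and 2.79% and 1.65% with the score. The median log2 fold change was -0.016, with 20 higher and 25 lower, and -0.0030 over all genes. Proteases were at 0.029, V0 genes at 0.0013 and V1 genes at -0.036. Without E59 these medians were 0.013, 0.022 and -0.017. Over the fits without 1 library, that of proteases ran from 0.0034 (without E213) to 0.063 (without E58). That of V0 ran from -0.039 (without E64) to 0.022 (without E58), and that of V1 from -0.069 (without E51) to -0.00060 (without E66). No gene had groups without overlap, where 0.102% of all genes were higher and 0.115% lower in that way. The 5 of smallest p were Atp6v1c2 (1.14 ± 0.56), Npc1 (-0.14 ± 0.07), Scarb2 (-0.15 ± 0.09), Gaa (0.44 ± 0.28) and Ctsb (-0.15 ± 0.10), each at an adjusted p of 0.9998.

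The male values rested in part on single mice. Gaa was at 50.7, 58, 73.6, 81.0 and 123 CPM in CD males and at 51.02 to 235 CPM with a median of 94.6 in KD males. Without E64, the KD male at 235, the log2 fold change was 0.14 in place of 0.44. Atp6v1c2 was at 0.202 to 0.919 CPM in CD males and 0.457 to 2.84 with a median of 0.927 in KD males. It was at 0.65 without E64 and 1.31 without E59. Npc1, the cholesterol exporter of the lysosomal membrane, was at 75.9, 79.99, 87.4, 92.3 and 93.0 CPM in CD males and at 62.8 to 92.5 CPM with a median of 77.8 in KD males, which overlapped. Tfeb was at -0.42 ± 0.31 in males, with 1.13 to 3.38 CPM in CD and 0.662 to 2.28 in KD males.

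The interaction asked whether the effect of the diet differed between the sexes, as the effect in females minus that in males. None of the 45 was called, nor was any gene (0%). At an unadjusted p under 0.05, 2 were higher (1.09% of all genes) and 1 lower (1.05%). These were Gusb (0.39 ± 0.14), Ctss (0.43 ± 0.19) and Atp6v1g2 (-0.31 ± 0.14), each at an adjusted p of 0.9999. Npc1 (0.22 ± 0.11) and Lamp1 (0.18 ± 0.09) followed. All 10 proteases had an interaction above 0, with a median of 0.18, and V1 genes had a median of -0.083. With the striatal score in the model the direction of the V-ATPase turned, from 13 of 17 genes below 0 to 10 of 17 above, and the V1 median was 0.0060, whereas the protease median was 0.16 with 9 of 10 above 0. With a microglial score the protease median was 0.044, and 15 of the 17 V-ATPase genes were below 0 with a V1 median of -0.082. The V1 median was -0.17 without E227 and -0.042 without E207, and the 3 genes at an unadjusted p under 0.05 were 1 without E53 (0.916% of all genes higher and 0.955% lower) and 6 without E228 (1.42% and 1.06%). Tfeb had an interaction of 0.82 ± 0.46. Each effect in females came from the same CD and KD females as above, so the interaction is no separate evidence.

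With the effects in both sexes averaged, none of the 45 was called, against 0.268% of all genes. There were 3 higher at an unadjusted p under 0.05 (7.41% of all genes) and 3 lower (6.44%). Atp6v1g2 had the smallest p (-0.28 ± 0.07, adjusted p = 0.112), and the others were Atp6v1c2 (1.20), Gaa (0.56), Npc2 (0.16), Gla (-0.20) and Atp6v1c1 (-0.17). The count of 6 was 3 without E207, where 5.46% of all genes were higher and 4.91% lower, and 12 without E249, where 11.3% were higher and 8.99% lower. The likelihood ratio test and DESeq2 each called Atp6v1c2, at 1.19 and 1.20 with adjusted p of 0.0996 and 0.0846, where they called 2.36% and 2.24% of all genes. It was also called without E249 (5.04% of all genes), without E227 (4.19%) and without both (7.83%).

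Females and males were compared over both diets. None of the 45 was called, against 0.134% of all genes. At an unadjusted p under 0.05, 5 genes were higher in females (8.59% of all genes) and 5 lower (4.96%). The higher ones were Ctsh, Ctsc, Ctss, Lipa and Atp6v0a2, and all 5 lower ones were V-ATPase genes, Atp6v0d1, Atp6v1a, Atp6v1b2, Atp6v1e1 and Atp6v1g2. The V-ATPase median was -0.13, with 14 of 17 lower in females, against 0.0031 over all genes. Striatal markers were also higher in females, all 12 with a median of 1.09, and all 8 cortical excitatory markers were lower with a median of -0.47. With the striatal score in the model the V-ATPase median was -0.071, and none of its genes was lower at an unadjusted p under 0.05 (1.57% of all genes). With the microglial score it was -0.13, with 14 of 17 lower and 2 of them at that level (3.24% of all genes). The 10 genes at an unadjusted p under 0.05 were 5 without E61, where 6.97% of all genes were higher and 2.68% lower, and 14 without E227, where 12.5% were higher and 11.4% lower. None of the 45 had CPM without overlap between the sexes, where 0.0319% of all genes were higher and 0.0255% lower in that way. The 5 lower genes were at -0.14 to -0.18.

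Ctsh (chr9:90054152-90076089, plus strand) was at 10.3, 10.3, 10.6, 13.2 and 15.6 CPM in CD females and 11.6, 13.7, 18.1 and 18.8 CPM in KD females. Males were at 8.60, 9.49, 10.0, 11.1 and 11.1 CPM on CD and at 9.23 to 11.8 CPM with a median of 10.6 on KD. The highest male library was below the 5 highest females and above the 4 lowest. The difference was 0.40 ± 0.11 (adjusted p = 0.156). Ctsc (chr7:88278085-88310888, plus strand), given above for females, was at 6.42, 6.90, 7.42, 8.10 and 11.1 CPM in CD males and 7.46 to 10.6 CPM with a median of 9.46 in KD males, and every male lay below the 4 highest females. It differed by 0.58 ± 0.16 (adjusted p = 0.162). Both passed an FDR of 0.1 with the likelihood ratio test (0.042 for Ctsc, 0.054 for Ctsh) and with DESeq2 (0.053 and 0.047), which brought 2.73% and 2.26% of all genes past it. Without E227, Ctsc was called at 0.66 with an adjusted p of 0.0178, where 5.1% of all genes were called.

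Lipa, the acid lipase that splits cholesteryl esters, differed by 0.26 ± 0.10 (adjusted p = 0.269) and Atp6v0a2 by 0.22 ± 0.07 (adjusted p = 0.222). Lipa was at 30.8, 31.2, 31.4, 35.3 and 51.2 CPM in CD females, 35.4, 35.5, 40.5 and 42.8 CPM in KD females and 24.0 to 36.8 CPM in males. Those ranges overlapped, and E249 was highest. Atp6v0a2 was at 24.9 to 39.8 CPM in females and 24.6 to 33.2 CPM in males. With the striatal score in the model these values were 0.36 for Ctsc, 0.29 for Ctsh, 0.12 for Ctss, 0.20 for Lipa and 0.11 for Atp6v0a2. With the microglial score they were 0.37 for Ctsc, 0.22 for Ctsh, 0.10 for Ctss, 0.089 for Lipa and 0.089 for Atp6v0a2, and none of the 5 was then at an unadjusted p under 0.05. In that fit Gusb alone of the 45 was higher in females at that level (3.32% of all genes), and the protease median was -0.043 in place of 0.024. Without the score, that median ran from -0.013 without E228 to 0.065 without E68.

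Leaving out E227 and E249, the female libraries that differed from their group on striatal markers, set 3 KD females of 1879 to 2144 CPM of striatal markers against 4 CD females of 137 to 192. Diet and striatal markers cannot be told apart in that comparison. There 12 of the 45 genes passed an FDR of 0.1 (18.4% of all genes), 7 higher and 5 lower, and 3 of them passed 1.5-fold (12.2% of all genes). The 7 higher were Atp6v1c2, Ctsc, Ctss, Ctsh, Npc2, Gusb and Atp6v0a2. The 5 lower were Atp6v1g2 (-0.55), Gla (-0.43), Atp6v0d1 (-0.39), Atp6v1e1 (-0.35) and Atp6v0e2 (-0.31). In the interaction Ctss was called without both (3.56% of all genes). Leaving out the KD male E59 left the female counts at an unadjusted p under 0.05 at 5 higher and 2 lower (6.35% and 5.52% of all genes). Leaving out the CD female E228 gave 10 higher and 2 lower (5.82% and 5.16% of all genes).

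The 2 library series were also fitted apart. Series 1 set the KD females E61 and E68 against the CD females E62 and E67, and series 2 set E207 and E227 against E249, E265 and E228. Atp6v1g2 was at -0.49 in series 1 and -0.39 in series 2, Npc2 at 0.29 and 0.28, Gla at -0.30 and -0.27, and Gusb at 0.40 and 0.19. Ctss was at 0.66 in series 1 and 0.20 in series 2. Ctsc was at 0.86 in series 1 and -0.090 in series 2, and so did not keep its direction. Series 1 alone called Ctsc and Ctss in females (5.42% of all genes) and Ctsc and Atp6v1c2 over both sexes (5.55%). Between the sexes Ctsc was at 0.64 in series 1 and 0.44 in series 2, and Ctsh at 0.51 and 0.25.

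Markers of other cell types were set beside these genes, and none of them was called for the diet in either sex. In females all 17 microglial markers were higher in KD (median 0.34, 6 at an unadjusted p under 0.05, C1qb at 0.55 and Aif1 at 0.45 with the smallest p), and in males all 17 were higher with a median of 0.082. The most abundant of them was Cx3cr1, at 45.1 to 95.9 CPM, and none was at 0. Their summed CPM was 319 to 477 in CD females, 444 to 634 in KD females, 326 to 453 in CD males and 338 to 522 in KD males. All 17 were also higher in females than in males (median 0.19), with Gpr34 called (0.67, adjusted p = 0.047). Of 9 neuron markers, 6 were lower in KD females (median -0.16), and Snap25, the most abundant, was at -0.57. All 8 cortical excitatory markers were lower (median -0.89) and all 12 striatal markers higher (median 2.13). Oligodendrocyte markers were all 8 higher in KD females (median 0.27) and all 8 lower in KD males (median -0.41). Their summed CPM was 1356 in E64 and 1493 in E254, KD males and the lowest of the 20 libraries. Other KD males reached 3843, and CD males were at 2344 to 4198. All 8 choroid plexus markers were higher in KD males (median 1.94), with Ttr at 0.603 to 2187 CPM, the highest in E59. Of 8 astrocyte markers 6 were higher in KD females (median 0.16), with Gfap at 0.50 (adjusted p = 0.357), and of 8 endothelial and mural markers 7 were higher (median 0.14). Of 10 markers of disease-associated microglia 8 were higher in KD females (median 0.33), with Lpl at 0.93 (adjusted p = 0.214), and of 6 macrophage and blood markers 4 were higher (median 0.38). In KD males 5 of these 10 were higher (median -0.026), and so were all 6 macrophage and blood markers (median 0.37). With the microglial score in the model the protease median in females was 0.038 in place of 0.21 (0.14 with the striatal score, 8 of 10 higher), and that of all 45 genes was -0.058. The part of these cells in the differences was not tested beyond these values.

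Genes that act with the lysosome were described in the same way. Of 36 other lysosomal hydrolases tested, 25 were higher in KD females (median 0.077), 3 of them at an unadjusted p under 0.05: Gm2a, the activator of ganglioside breakdown (0.25, adjusted p = 0.253), Fuca1 (0.31, adjusted p = 0.385) and Idua (0.35, adjusted p = 0.40). Ids was the most abundant of the list, at 290.5 to 672 CPM. In males 20 of the 36 were higher, and Siae alone was at an unadjusted p under 0.05 (-0.31). Of 28 other membrane proteins and channels, 17 were higher in KD females, and the single one at p under 0.05 was Lamp5 (-1.13, adjusted p = 0.307), a protein known from neurons. Tmem106b, the most abundant of that list, was at 0.092 ± 0.13. Between the sexes Slc29a3, a lysosomal nucleoside transporter, had the smallest p (0.45 higher in females, adjusted p = 0.124).

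Of the 14 V-ATPase accessory genes tested, 10 were lower in KD females (median -0.071) and 10 higher in KD males (median 0.039). The list they came from also named the a-subunit gene Tcirg1. Dmxl2, a subunit of the complex that assembles V1 with V0, was at -0.26 (adjusted p = 0.361) in females, and the TLDc proteins Oxr1 and Ncoa7 were at -0.40 (adjusted p = 0.367) and -0.25 (adjusted p = 0.428). These were 3 of 14 at an unadjusted p under 0.05 and lower, beside the 5.5% of all genes given above. Cystatin C (Cst3), the abundant inhibitor of cathepsins, was at 0.30 in KD females (adjusted p = 0.294) and at 0.068 in males, and 5 of 7 cathepsin inhibitors were higher in KD females. The 13 genes of mannose 6-phosphate tagging and sorting were 8 higher and 5 lower, with none at p under 0.05 and the most abundant, Sort1, at -0.22 ± 0.12. Of 17 tested genes from a list of TFEB regulators and related factors, 9 were higher and 8 lower (median 0.0011). Ppp3cb, a calcineurin subunit, was at -0.28 (adjusted p = 0.366). The list also named Mitf and Tfec, which are factors related to TFEB. Autophagy genes were 11 higher and 16 lower of 27, with none at p under 0.05 and the most abundant, Gabarapl1, at -0.047 ± 0.09. None of the genes of these lists was called in any comparison.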

How the data were processed

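RNA from frozen cortex of 20 mice was sequenced as stranded total RNA libraries, 1 per mouse, with paired 50-base reads. The authors aligned reads to mm10 with STAR and counted them per gene, and deposited raw counts per gene for each library. The versions and the strand setting of the counting are not given in the sources used here. The files held 0 columns of unmapped samples.

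Counts as deposited were analysed in R 4.3.3 with edgeR 4.0.16 (limma 3.58.1) by a quasi-likelihood F test with robust fitting, upper-quartile normalization and 4 groups plus library series. The 15660 genes kept by filterByExpr were tested, and p-values were adjusted over all of them by the Benjamini-Hochberg method. A gene was called at FDR 0.1 and 1.5-fold. A ± value after a log2 fold change is its standard error. It was computed as the absolute change divided by the square root of the F statistic. CPM values use library totals and no normalization factors, so that a gene's CPM and its fitted change can differ. Gene coordinates and levels per length used the genes and exon unions of GENCODE M21, matched by name for 21737 of 23413 names and for all 51 genes. Depth sets the precision of low genes, and total counts per library are given in the text. Each p-value sets a group difference against the spread between the libraries of these mice. That spread includes the differences in tissue markers described above.

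Any of the 51 genes could be named, with full statistics for the 5 of smallest p in females, in males, in the interaction and between the sexes, for Tfeb and Tfe3, and for the most and least abundant of each class. From other lists the most abundant gene, those past the FDR and the 2 of smallest p in females were eligible, and others are examples. The most abundant gene of some lists is not reported here. The genes and lists were chosen with earlier results of these data known. No list was tested. The alternatives were TMM and DESeq2 size factors, no filter and a filter of 10 counts per library, a model without the series, RUVg factors (settings rebuilt, with 5000 genes of smallest p left out of the controls), each series alone, each sex alone, edgeR's likelihood ratio test, DESeq2 1.42.0, striatal and microglial scores as covariates, and leaving out libraries. In counts simulated for the effect in females, 200 genes changed and the same FDR and fold were used. Of the changed genes, 18.1% were recovered at 1.5-fold, 68.3% at 2-fold and 87.4% at 3-fold. There were 4, 17 and 25 unchanged genes past the FDR alone. Each simulated gene was drawn separately around a common level, with no series effect and no shared shift of striatal or cortical markers. Recovery in the real female libraries can therefore differ.

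Promoters were read from the RefSeq table. Python 3.11.15, pandas 2.3.3, numpy 2.4.6 and matplotlib 3.10.9 were used.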

Additional observations from a re-analysis of the deposited data

Results flagged for a closer look

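Single libraries stood far from the rest of their group in 8 of 68 pairs of a gene and a group of 4 to 6 mice, judged by how far it lay from its nearest neighbour relative to the whole range of that group. Chance flags about 1 in 20 groups, or 3.4 of 68. The CD female E249 stood high for Atp6v1c2 (2.70 CPM against 0.892 in the next library, a gap of 0.735 of the range), Ctsc (18.7 against 10.1, 0.857) and Lipa (51.2 against 35.3, 0.782). This is the CD female with 868 CPM of striatal markers. The KD female E227, the one without high striatal markers, stood high for Atp6v1g2 at 139.8 CPM against 117 (0.934). The CD female E62 stood high for Gusb at 13.1 against 11.1 CPM (0.918), and the CD female E265 low for Npc2 at 33.0 against 46.2 CPM (0.728). Among males, the KD library E64 stood high for Gaa at 235 against 97.0 CPM (0.750), and the CD library E51 low for Lipa at 24.0 against 29.7 CPM (0.748). The cause was not tested in any of these.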

How the results depend on the processing

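None of the 45 genes was called in females, in males, in the interaction, over both sexes or between the sexes under the other normalizations, filters, RUVg factors or the fit without a series term, nor for the diet with each sex fitted alone. Of all genes, these settings called 0.0066% (each sex alone) to 1.7% (RUVg with 2 factors) in females and 0.13% (no filter) to 2.25% (RUVg with 2 factors) over both sexes. In females, series 1 alone called 2 genes, Ctsc and Ctss (5.42% of all genes). Leaving out E227 and E249 together called 3 (12.2% of all genes). Over both sexes, series 1 alone called 2 (5.55% of all genes). The likelihood ratio test, DESeq2 and the fit without E227 and E249 called 1 each, Atp6v1c2 (2.36%, 2.24% and 7.83% of all genes). The interaction called 1, Ctss, without E227 and E249 (3.56% of all genes). Leaving out single libraries gave 0 to 2 calls in females, where 2 came without E249 (6.66% of all genes). Over both sexes it gave 0 to 1, where 1 came without E249 (5.04%) or E227 (4.19%). Between the sexes it gave 0 to 1, where 1 came without E227 (5.1%).

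In females the V0 median was -0.25 in series 1 alone and -0.26 without E227 and E249, and it ran from -0.18 without E227 to 0.068 without E207. The V1 median ran from -0.18 without E227 to -0.069 without E207. With the striatal score the V1 median was -0.011. With the microglial score the median of the 45 genes was -0.058 and that of proteases was 0.038. The interaction's V1 median was -0.22 without E227 and E249 and 0.0060 with the striatal score. Npc2 in females was at -0.0011 with the microglial score, and Ctss in the interaction reversed to -0.053 in series 2 alone. The cause was not tested. No paired analysis was possible because each replicate is labelled with its own animal, and groups have no numbers in common. Depth limits the genes under 1 CPM, such as Atp6v0a4, and the shallowest libraries, E249 and E265, are both CD females.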
